A study of Mus musculus with 4 samples.

Results

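Matrix metalloproteinases are zinc-dependent enzymes that cut the proteins of the extracellular matrix, and 10 mouse genes of the family are described here: Mmp2, Mmp3, Mmp8, Mmp9, Mmp11, Mmp13, Mmp14, Mmp16, Mmp19 and Mmp23. They were read by the 19 array probe sets annotated to exactly 1 of these symbols, of 45037 probe sets and 18193 genes in all. The 3 stromal genes (Mmp2, Mmp13 and Mmp14, with 6 probe sets) were set against the myeloid genes Mmp8 and Mmp9 (3 probe sets), and the other 5 genes had 10 probe sets.

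The cells came from the bone marrow of adult NOD/SCID mice (strain NOD.CB17-Prkdcscid/J), called recipients in the design text of a series whose title concerns human HSCs. Whether these mice carried human cells is not stated, and mice with the scid mutation lack mature lymphocytes of the B and T lineages. All samples went through the same sort for bone-forming cells, which kept CD51+ cells without CD45, CD31, Sca1 or blood lineage antigens. The groups differ in the place of origin, the trabecular bone area or the long bone area, with 2 arrays each, and the comparison asks how the sorted cells differ between these places. The labels call the arrays biological replicates and do not say which mice they came from, whether mice were pooled or how old they were beyond adult, so every test below measures only the spread between these samples. RNA was amplified before labelling. In such bulk samples, fewer cells of a type and less RNA per cell cannot be told apart.

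Each family member is made as an inactive proenzyme and is held in check by the tissue inhibitors of metalloproteinases (TIMPs). Collagenases (Mmp8, Mmp13) cut fibrillar collagen, gelatinases (Mmp2, Mmp9) cut denatured collagen and basement membrane, stromelysins (Mmp3, Mmp11) include enzymes that cut proteoglycans and activate other members, and membrane-bound forms (Mmp14, Mmp16) act at the cell surface, where Mmp14 activates pro-Mmp2. In bone, Mmp13 is known from hypertrophic cartilage and osteoblasts, Mmp9 from osteoclasts and neutrophils, and Mmp8 from the granules of neutrophils.

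Each value is a log2 distance from the 4-array median of its probe set, so 0 stands for that median and not for absence, and levels of different genes cannot be compared. The arrays themselves differed. Long bone array 2 had 2493 probe sets at least 2-fold from the median, against 383 to 848 on the others. Its Gapdh 5' minus 3' control difference, a sign of RNA integrity, was -1.16 against -0.09 to 0.31. The same difference for Actb did not set that array apart, at -0.04. It was 0.44 and -0.07 on trabecular arrays 1 and 2 and 0.07 on long bone array 1. The median of 9 spiked hybridisation controls was 0.22 and 0.23 in the long bone samples, against -0.13 and -0.23 in the trabecular ones. Setting the arrays to equal controls shifts the median of all genes by 0.40, so every difference between -0.40 and 0 below turns positive on that scale. Of the sort antigens, Itgav (CD51) differed by -0.13 between the areas, Pecam1 (CD31) by -0.02 and Ptprc (CD45) by -0.34, a value that turned to 0.20 without long bone array 1, and Ly6a (Sca1) was not analysed here.

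Of the members, 3 lie in a run of 10 protein-coding Mmp genes that follow each other on chromosome 9 in RefSeq (GRCm38.p6), and their upstream sequences are shown because the differences of Mmp13 and Mmp8 between the areas had opposite signs. The lines below give the 250 bases before the RefSeq start site, 5' to 3', of Mmp13 (chr9:7272264-7272513, plus strand), Mmp3 (chr9:7445572-7445821, plus strand) and Mmp8 (chr9:7558179-7558428, plus strand). Capitals mark matches on either strand to the motifs searched. These were TGTGGT for RUNX factors, AGGAAG for ETS factors, TTGCNNAA for C/EBP factors, TATAAA for the TATA box, and TGA and TCA with any 1 base between them for AP-1.
Mmp13: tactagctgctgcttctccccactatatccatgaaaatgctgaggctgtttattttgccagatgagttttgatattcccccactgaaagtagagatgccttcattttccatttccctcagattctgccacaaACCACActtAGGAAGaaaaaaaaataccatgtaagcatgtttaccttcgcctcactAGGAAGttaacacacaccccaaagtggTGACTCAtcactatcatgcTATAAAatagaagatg
Mmp3: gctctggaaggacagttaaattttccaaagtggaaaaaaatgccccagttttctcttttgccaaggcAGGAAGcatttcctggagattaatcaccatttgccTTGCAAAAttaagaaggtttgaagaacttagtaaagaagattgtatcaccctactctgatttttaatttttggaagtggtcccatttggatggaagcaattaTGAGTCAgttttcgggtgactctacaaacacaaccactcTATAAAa
Mmp8: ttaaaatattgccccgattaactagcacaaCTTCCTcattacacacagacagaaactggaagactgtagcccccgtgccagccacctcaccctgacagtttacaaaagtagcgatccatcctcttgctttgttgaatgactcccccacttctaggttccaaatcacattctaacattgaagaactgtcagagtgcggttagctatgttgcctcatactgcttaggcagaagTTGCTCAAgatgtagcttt

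In these windows Mmp13 and Mmp3 each held an AP-1 match, TGACTCA starting 35 bases before the start site of Mmp13 and TGAGTCA starting 46 bases before that of Mmp3. Both also held TATAAA, 16 and 7 bases before the start. Mmp13 alone of the 3 had a RUNX match (ACCACA, 118 bases before the start), with ETS matches at 109 and 62. A C/EBP match lay 148 bases before the start of Mmp3 (TTGCAAAA) and 19 bases before that of Mmp8 (TTGCTCAA), and each of these windows had an ETS match, at 183 and 220. Over all 32851 mouse promoter windows of this length, 6.75% held the AP-1 motif, 14.0% RUNX, 29.5% ETS, 9.56% C/EBP and 12.4% TATA. The matches do not overlap each other, and they are descriptions of letters, not of binding. RefSeq windows were at hand for 6 of the 10 members: Mmp3, Mmp8, Mmp11, Mmp13, Mmp14 and Mmp23. In the windows not printed, RUNX matches lay 114 bases before the start of Mmp14 (ACCACA) and 177 before a start of Mmp23 (TGTGGT). A RUNX match is therefore not particular to Mmp13 among the members. Mmp14 also had an ETS match at 209, and the window of Mmp11 held no match.

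The 3 stromal members lay lower in trabecular samples and the myeloid ones higher, except that Mmp14 turned to 0.14 with equal hybridisation controls. The collagenase Mmp13 had the widest difference, 15.4-fold lower in the trabecular area, and the gelatinase Mmp2 was 2.12-fold lower. Mmp9 was 2.86-fold and Mmp8 2.17-fold higher in the trabecular area. With limma and Benjamini-Hochberg adjustment over all genes, 0 of the 10 members had an adjusted p under 0.05, as did 0 (0%) of the 18193 genes (2811, or 15.5%, at an unadjusted p under 0.05). At an unadjusted p under 0.05 there were 2 members lower (Mmp2 and Mmp13) and 2 higher (Mmp8 and Mmp9), where 4.62% and 10.8% of all genes were. On the scale of equal hybridisation controls the split over all genes was 9362 higher and 176 lower, against 1971 and 840.

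**Figure D1:**
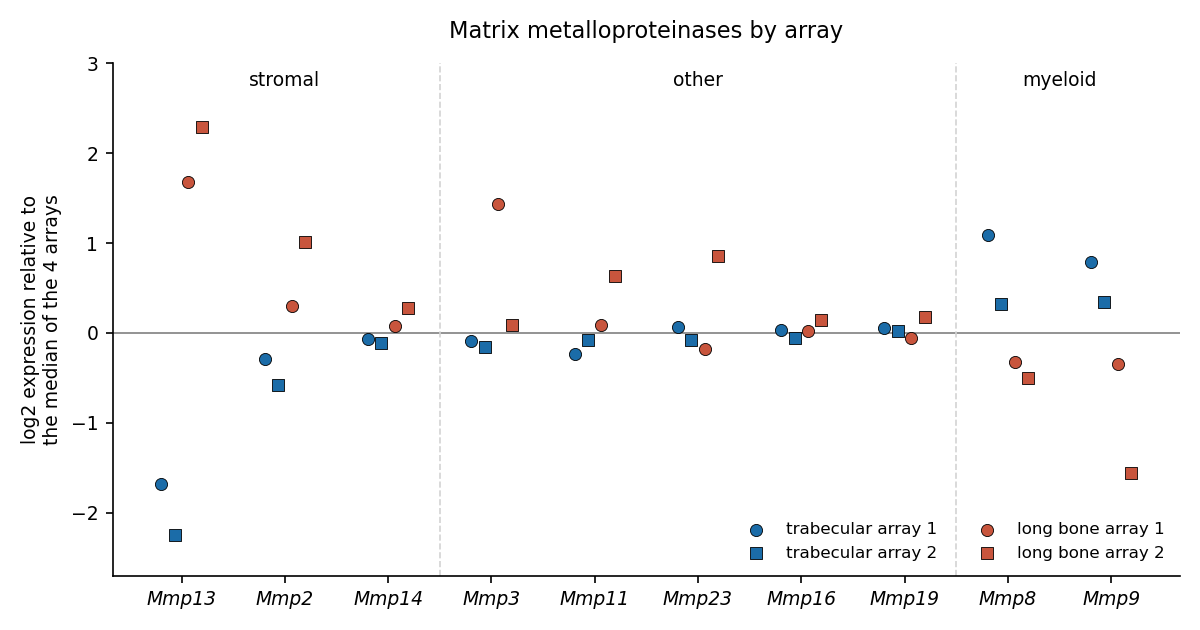
Log2 values of the 10 members in each sample, as distances from the 4-array median (blue for trabecular, red for long bone; circles for array 1, squares for array 2). Mmp13 lies at -1.68 and -2.25 on the trabecular samples against 1.68 and 2.30 on the long bone samples, while Mmp8 and Mmp9 are arranged the other way round.

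Mmp13 stood at log2 values of -1.68 and -2.25 on trabecular samples 1 and 2, and at 1.68 and 2.30 on long bone samples 1 and 2. Both long bone samples were far above both trabecular samples, with a gap of 3.35 between the nearest arrays of different areas, while arrays of 1 area were 0.57 and 0.62 apart. The difference, trabecular minus long bone, was -3.95 (SE 0.30, 95% interval -4.76 to -3.14, limma adjusted p = 0.131, n = 2 per area). It ranked 5 by size among 18193 genes, and no single array decided it, since with 1 array left out it ran from -4.26 to -3.64. Without long bone sample 1 the difference was -4.26. That fit, like the fit without long bone sample 2, takes its spread from the trabecular pair and assumes that the lone long bone array varies like it. With equal hybridisation controls the limma adjusted p was 0.0463, in a setting where 2857 of all 18193 genes were called. A single probe set reads this gene.

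Mmp2, a gelatinase of fibroblasts and other stromal cells, stood at -0.29 and -0.57 on trabecular samples 1 and 2 and at 0.29 and 1.01 on long bone samples 1 and 2. The areas did not overlap, and long bone sample 2 was the highest. The difference was -1.09 (SE 0.28, 95% interval -1.84 to -0.34, limma adjusted p = 0.256), and -0.73 without long bone sample 2. Its probe sets gave -1.06 and -1.11. Without long bone sample 1 the difference was -1.45.

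Mmp14, the membrane-bound collagenase that activates pro-Mmp2, was at -0.07 and -0.11 in the trabecular area and at 0.07 and 0.28 in the long bone area. The areas did not overlap but lay within 0.39 of each other. The difference of -0.27 (95% interval -0.63 to 0.09, limma adjusted p = 0.406) was -0.16 without long bone sample 2 and 0.14 with the arrays set to equal hybridisation controls. Its 3 probe sets disagreed. The probe set farthest from 0 differed by -0.75 (adjusted p = 0.266 over all probe sets, limma), with -0.21 and -0.32 against 0.21 and 0.76, whereas the others differed by 0.05 and -0.10 and overlapped between the areas. The value of the gene is the mean of these 3.

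Mmp9, the gelatinase of osteoclasts and neutrophils, was at 0.79 and 0.35 on trabecular samples 1 and 2 and at -0.35 and -1.56 on long bone samples 1 and 2. Every trabecular value was above every long bone value, and long bone sample 2 was the farthest from the others. The difference was 1.52 (SE 0.44, 95% interval 0.34 to 2.70, limma adjusted p = 0.273), and it was 0.91 with long bone sample 2 left out and 2.12 with long bone sample 1 left out. Its 2 probe sets gave 1.60 and 1.44, so both lay on the same side of 0.

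Mmp8, the neutrophil collagenase, was at 1.09 and 0.32 in the trabecular area and at -0.32 and -0.50 in the long bone area. The areas did not overlap, and here it was trabecular sample 1 that stood out. The difference of 1.12 (SE 0.29, 95% interval 0.35 to 1.88, limma adjusted p = 0.256) was 0.73 without that array. With equal hybridisation controls it was 1.52 at a limma adjusted p of 0.0463, in a setting where 2857 of all 18193 genes were called.

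**Figure D2:**
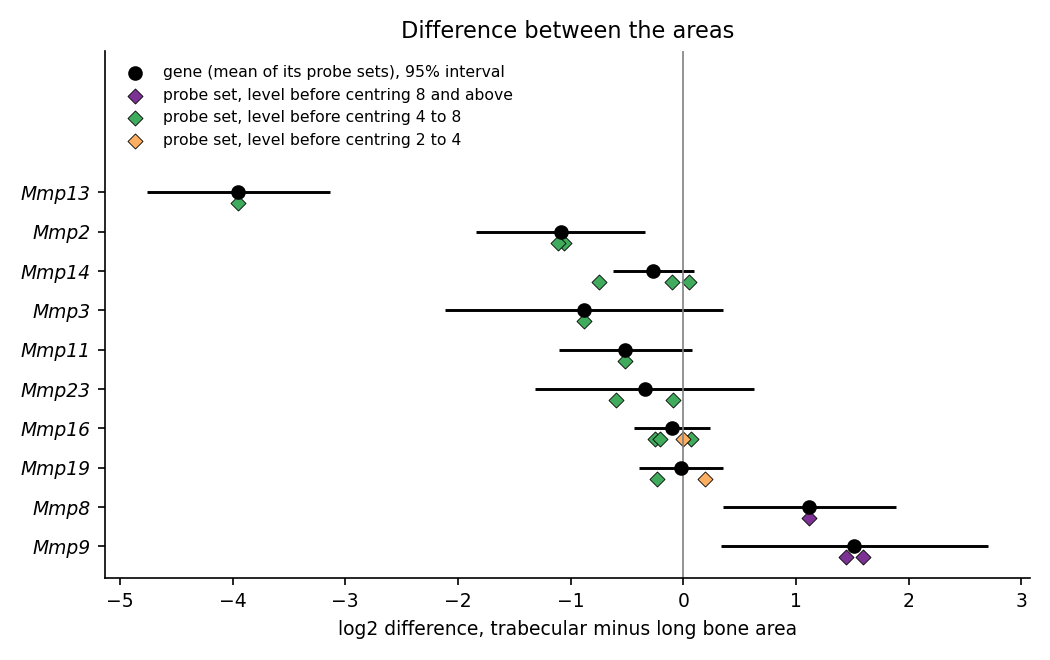
Log2 difference between the areas (trabecular minus long bone) for each gene with its 95% interval from limma (black), and for each of its probe sets (diamonds, coloured by the range of its level before centring). The intervals of Mmp13, Mmp2, Mmp8 and Mmp9 leave out 0, and the diamonds of Mmp14 spread from -0.75 to 0.05.

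The level of a probe set before centring can be read coarsely from the rounding step of the stored numbers, on the log2 scale of the array and with the probes' own affinity in it. The step of all 3 probe sets of Mmp8 and Mmp9 was that of 8 or more on every array, as for 33.7% of the 41631 probe sets that could be read. None of the 6 stromal probe sets had it, and theirs was that of 4 to 8, meaning that at least 1 array was below 8. Over all 19 probe sets, 14 were read at 4 to 8 and 2, from Mmp16 and Mmp19, at 2 to 4. The probe sets of Mmp20 and Mmp7, which are not members, were also read at 8 and above, so the band does not set the myeloid members apart in the family. A dimmer probe set can be read as bright by chance, and the bands are a guide only.

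Among the other 5 members none reached an unadjusted p under 0.05 in limma. The stromelysin Mmp3 was at -0.09 and -0.16 in the trabecular area and at 1.43 and 0.09 in the long bone area. The areas do not overlap, but the high value is on long bone sample 1 alone, and the difference of -0.88 (95% interval -2.12 to 0.35, adjusted p = 0.417) was -0.21 without it and -1.56 without long bone sample 2. Mmp11, stromelysin 3, was at -0.24 and -0.08 against 0.08 and 0.63, a difference of -0.52 (adjusted p = 0.358) that was -0.24 without long bone sample 2.

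Mmp23 was at 0.06 and -0.08 in the trabecular area and at -0.18 and 0.85 in the long bone area, so the areas overlapped and long bone sample 2 was far above the rest. The difference of -0.34 turned to 0.17 without that array, and to 0.06 with equal hybridisation controls. Without long bone sample 1 the difference was -0.86. On long bone sample 2 its probe sets read 1.25 and 0.45.

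Mmp16, a membrane-bound member, was at 0.03 and -0.06 against 0.03 and 0.15, with a difference of -0.10 (95% interval -0.44 to 0.24). Mmp19 was at 0.06 and 0.02 against -0.05 and 0.17, with a difference of -0.02 (95% interval -0.39 to 0.35). Both genes overlapped between the areas, and the arrays spanned only 0.20 and 0.23. With equal hybridisation controls the differences were 0.30 and 0.38, and Mmp19 also turned sign without long bone sample 2 (0.09) and after quantile normalization (0.01). Its 2 probe sets went opposite ways, at -0.24 and 0.20, and those of Mmp16 ran from -0.25 to 0.07.

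By count, 5 of the 10 members were lower with no overlap between the areas (Mmp2, Mmp3, Mmp11, Mmp13 and Mmp14), where 21.4% of all genes were, and 2 were higher with no overlap, where 29.9% were. A negative difference was found for 8 members and 45.4% of all genes. Of the 19 probe sets 7 were lower and 4 higher with no overlap (26.2% and 25.9% of all probe sets), 7 had an unadjusted p under 0.05 in limma (16.3%) and 0 an adjusted one (0%). Differences of at least 2-fold with no overlap were found for 2 members in each direction, against 1.17% of all genes lower and 1.46% higher. The median difference of the members was -0.31, and that of all genes 0.03. Without long bone sample 2 these were -0.10 and 0.05, and with equal hybridisation controls 0.10 and 0.43, where 4 members had a negative difference. Exact permutation of 2 against 2 arrays cannot give a two-sided p below 0.333. Long bone sample 2 was the highest of the 4 for 7 members and the lowest for 2, while over all genes it was the highest for 35.2% and the lowest for 32.4%.

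The mean of Mmp2, Mmp13 and Mmp14 was -0.68 and -0.98 on trabecular samples 1 and 2 and 0.68 and 1.20 on long bone samples 1 and 2. The mean of Mmp8 and Mmp9 was 0.94 and 0.33, then -0.33 and -1.03. Stromal minus myeloid was therefore -1.62 and -1.31 in the trabecular area and 1.02 and 2.23 in the long bone area. The centring places areas that do not overlap on either side of 0, so only the difference between the areas carries information, not the sign or which mean is above the other. That difference between the areas was -3.09 (mean -1.47 ± 0.21 against 1.62 ± 0.86, SD, n = 2 each), which is given with no test because the genes were chosen with their values known. A shift common to all genes of an array cancels in this difference. Mmp13 carried much of it, and with Mmp13 left out the difference was -2.00. Comparing arrays of the same number gave -2.63 for number 1 and -3.54 for number 2.

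**Figure D3:**
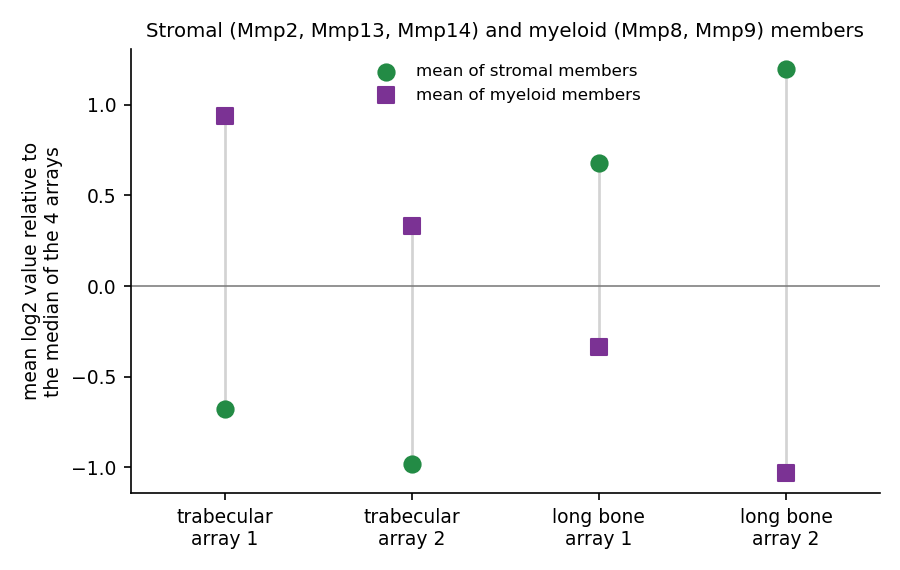
Mean log2 value of the stromal members (green circles) and of the myeloid members (purple squares) on each array, relative to the median of the 4 arrays. The stromal mean differs by -1.77 between the areas and the myeloid mean by 1.32, while which mean lies above the other on an array follows from the centring and shows no abundance.

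In the chromosome 9 run, RefSeq gives the order Mmp13, Mmp12, Mmp1b, Mmp3, Mmp1a, Mmp10, Mmp8, Mmp27, Mmp20 and Mmp7, of which Mmp27 was not analysed here. Only Mmp13, at 1 end, and Mmp8 differed by 2-fold or more, in opposite directions. Between them Mmp12 differed by -0.18, Mmp1b by 0.09, Mmp1a by 0.01 and the stromelysin Mmp10 by -0.37 (adjusted p = 0.313, limma), and beyond them Mmp20, the enamel protease, by -0.20 and Mmp7 by -0.15. Of the 9 measured genes 6 were lower with no overlap, where 21.4% of all genes were, although all of them but Mmp13 and Mmp3 lie within 0.40 of 0 and turn positive with equal hybridisation controls.

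**Figure D4:**
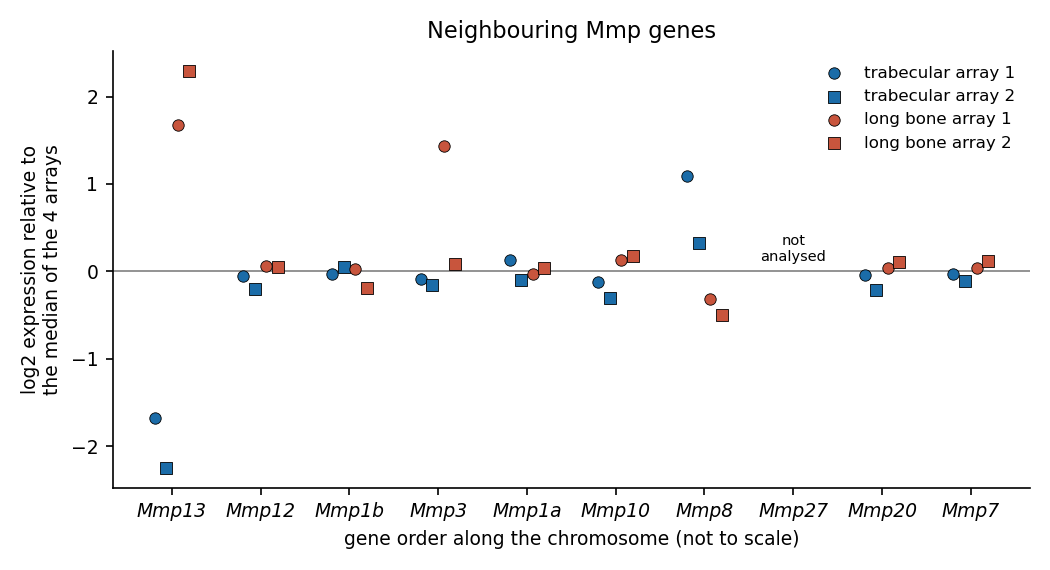
Log2 values in each sample of the neighbouring Mmp genes of chromosome 9, in gene order and not to scale, as distances from the 4-array median. The areas are far apart for Mmp13, at -1.68 and -2.25 against 1.68 and 2.30, and apart in the other direction for Mmp8.

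Over all family genes outside the 10, 8 of 13 were measured (Mmp1a, Mmp1b, Mmp7, Mmp10, Mmp12, Mmp17, Mmp20 and Mmp24), and 0 were called in limma, with 1 (Mmp10) at an unadjusted p under 0.05. Of these 8 genes 5 were lower with no overlap, where 21.4% of all genes were, and 0 higher, so that pattern is not particular to the members. Each of their differences was smaller than the common shift of 0.40 with equal hybridisation controls. The median difference of the 8 was -0.15, against 0.03 for all genes. Inhibitors went both ways, with 0 of 6 called. Timp1, a secreted inhibitor, was at -0.18 and -0.80 against 0.72 and 0.18 (difference -0.94), and Timp3, the matrix-bound one, at -0.26 and -0.40 against 0.26 and 0.48 (difference -0.70). Both were lower in the trabecular area without overlap, as was Mmp13. Reck, a membrane-anchored inhibitor, was at 0.60 and 0.17 against -0.17 and -1.03, a difference of 0.98 that was 0.55 without long bone sample 2. Timp2 (0.19) and Timp4 (-0.25) overlapped between the areas. Timp2 turned to -0.11 without trabecular sample 1, and Timp4 to 0.17 without long bone sample 2.

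Among 13 measured activators and genes of the plasminogen system, which activates several of the proenzymes, 0 were called, and at an unadjusted p under 0.05 there were 3 lower and 2 higher, where 4.62% and 10.8% of all genes were. The count of higher genes is near that background. The serine protease Htra1 differed by -2.72 and Ctsk, the bone collagenase cathepsin K, by -0.73, while Plaur, the urokinase receptor, differed by 1.08 and Serpinb2, a urokinase inhibitor, by 0.59 (0.34 without trabecular sample 1).

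Of 19 matrix proteins that are substrates of the family, 19 were lower in the trabecular area, 15 of them with no overlap, and 0 were called in limma (11 at an unadjusted p under 0.05), where the shares over all genes were 45.4%, 21.4% and, for the lower genes at an unadjusted p under 0.05, 4.62%. Their median difference was -1.75. Comp differed by -5.18, the small proteoglycan Fmod by -3.96, Col2a1 of cartilage by -3.77 and Bgn by -2.60. These genes are ones that earlier results of these data already showed to be lower, so they add no independent support. Col2a1, Col10a1, Acan and Comp are counted again among the chondrocyte genes below, and Col1a1, Col1a2 and Sparc among the osteoblast genes. The lists are therefore not separate sets.

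Regulators that are known to act on Mmp promoters had a median of 0.49, with 13 of 17 higher and 0 called (3 higher at an unadjusted p under 0.05, where 10.8% of all genes were). That median was 0.05 without trabecular sample 1 and -0.08 without long bone sample 1. Epas1 differed by -1.43 (-0.38 without long bone sample 2), Jun by 1.22 (-0.16 without long bone sample 1), Ets2 by 1.11 (0.56 without trabecular sample 1 and 0.62 without long bone sample 1) and the AP-1 subunit Fosb by 1.11 (0.68 without long bone sample 1). Jun rested on a single low value of -2.47 on long bone sample 1, against 0.05 to 0.30 on the other arrays. Runx2 was not analysed here. Inducing signals and receptors had a median of 0.01, with 8 of 17 lower and 0 called (5 lower and 3 higher at an unadjusted p under 0.05, against 4.62% and 10.8% of all genes). Without trabecular sample 1 that median was -0.22, without trabecular sample 2 0.34, and without long bone samples 1 and 2 in turn -0.16 and 0.13. Il6 differed by -2.65, the oncostatin receptor Osmr by -1.18, the parathyroid hormone receptor Pth1r by -1.09 (-0.65 without long bone sample 2) and Il1b by 1.03, which turned to -0.17 without trabecular sample 1.

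Markers of several cell types moved beside the members. Chondrocyte genes had medians of -0.58 and -0.81 on trabecular samples 1 and 2 and 0.85 and 0.92 on long bone samples 1 and 2. Mmp13 has this order of arrays, and so do the medians of the osteoblast genes and of the substrates. All 20 of 20 chondrocyte genes were lower in the trabecular area, 18 of them with no overlap, where 45.4% and 21.4% of all genes were. The areas overlapped for Col10a1 (-0.27, and 0.04 without long bone sample 2) and for Ihh (-0.08). The summed log2 values of the 20 genes were -19.0 and -17.9 against 21.7 and 18.4, which is the other order within each area. Comp, Col11a1 (-4.07), Col2a1 and Matn3 (-3.54) led them. Genes of osteoblasts, which the sort was designed to collect, had medians of -0.29 and -0.41 against 0.29 and 0.78, with 11 of 11 measured lower, summed values of -8.32 and -5.40 against 6.58 and 8.72, and Col1a2 (-2.46), Sparc (-2.35), Ibsp (-2.00) and Col1a1 (-1.75) in front. Col1a1 was at -0.75 without trabecular sample 1 and -2.74 without trabecular sample 2. A probe set read at 8 and above was present for 4 of these 11 genes. The part of either cell type in the difference of Mmp13 was not tested.

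Reticular stroma genes had medians of 0.01 and -0.58 against -0.07 and 1.54, high on long bone sample 2 alone, where Mmp2, Mmp11, Mmp13, Mmp14, Mmp16, Mmp19 and Mmp23 were also highest. All 12 of 12 were lower in the trabecular area but only 3 without overlap, near the 21.4% of all genes, with summed values of 1.14 and -7.06 against -1.93 and 22.8. Esm1 differed by -2.25, Adipoq by -2.07, Cxcl12 by -1.43 and Pdgfrb by -1.31, and without that array the values were 0.45, 0.53, -0.39 and -0.36. The part of these cells in the differences of the 7 members was not tested.

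Beside Mmp8 and Mmp9, neutrophil granule genes had medians of 0.01 on both trabecular samples and -0.01 and -0.15 on long bone samples 1 and 2. Of 18 measured 13 were higher, 7 of them without overlap (29.9% of all genes), with summed values of -0.88 and 3.33 against -1.85 and -6.20. The surface receptors Itgam (1.68), Ltb4r1 (1.00) and Cd177 (0.74) and the granulocyte gene Mcemp1 (0.63) differed most, and without long bone sample 2 they were at 0.85, 0.42, 0.12 and 0.19. Ltf was at 0.01 on both trabecular samples and at -0.01 and -0.76 on the long bone samples, Camp differed by 0.06, Ngp by 0.06, Lcn2 by 0.18 and S100a9 by 0.08. Genes of the primary granules had trabecular samples far apart, so their differences show no order of the areas. Ctsg was at -1.07 and 1.06 in trabecular samples 1 and 2, Elane at -1.04 and 0.69, Prtn3 at -0.93 and 0.54 and Mpo at -0.43 and 0.48. A probe set read at 8 and above was present for 14 of the 18 genes, in cells sorted as CD45-. S100a8 and S100a9 are not among these 14 because their values lay too close to 0 for the level to be read. Centred values cannot show whether any marker is absent.

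Osteoclast genes, the other known source of Mmp9, had medians of 0.02 and -0.04 against 0.01 and 0.06, with 6 of 12 lower and 6 higher and summed values of 0.44 and 0.10 against 0.13 and -1.07. Acp5 differed by 0.81, Ctsk by -0.73, Nfatc1 by 0.52 (0.15 without long bone sample 2) and Tcirg1 by 0.49 (0.13 without long bone sample 2). Macrophage and monocyte genes had a median difference of -0.19 (9 of 14 lower and 5 higher), and -0.09 without long bone sample 2, with Cd68 at 0.78. C1qa (-0.59) and Mrc1 (-0.43) were lower with no overlap and stayed negative with any 1 array left out. C1qb differed by -1.04 with overlap of the areas, from -1.81 without trabecular sample 1 to -0.26 without trabecular sample 2, and by -0.38 without long bone sample 2. Endothelial, erythroid and B cell genes had median differences of -0.05, -0.14 and -0.17, and each turned sign with 1 sample left out: endothelial genes to 0.03 without trabecular sample 2, and erythroid and B cell genes to 0.11 and 0.01 without long bone sample 2. The part of any of these cells in the differences of Mmp8 and Mmp9 was not tested.

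**Figure D5:**
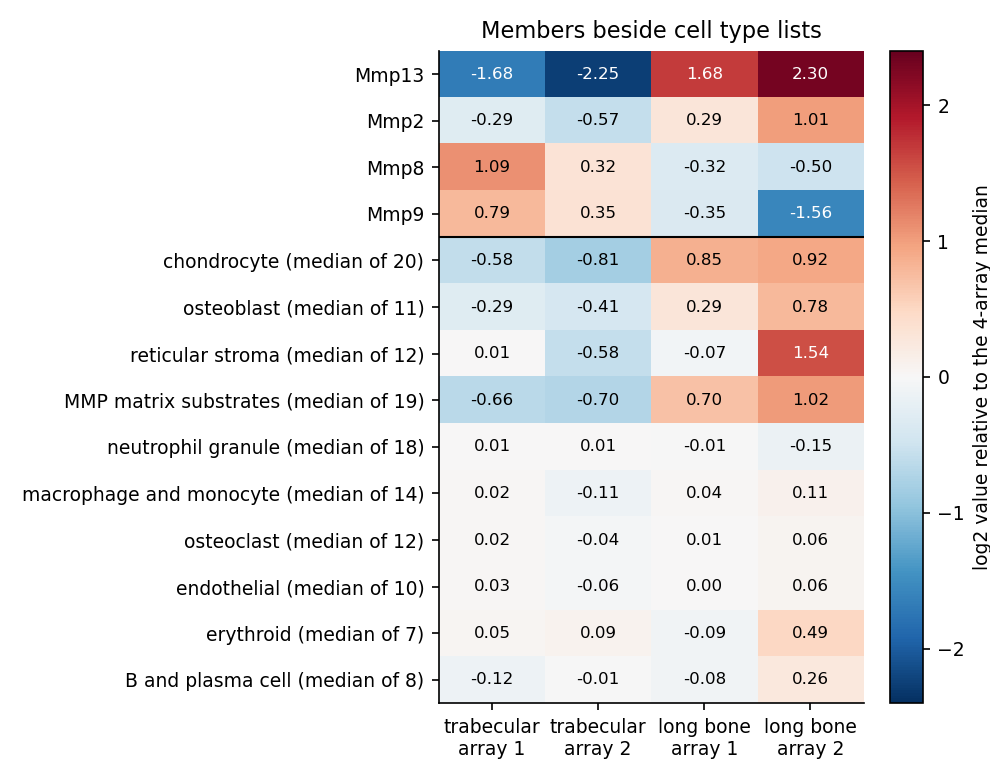
Log2 values of 4 members on each array (top rows) and the median value of each list of cell type markers or substrates on the same array (lower rows), relative to the median of the 4 arrays; colour and printed number give the same value. Medians of chondrocyte genes (-0.81 to 0.92), osteoblast genes (-0.41 to 0.78) and substrates (-0.70 to 1.02) all have the order of Mmp13. Neutrophil granule medians stay between -0.15 and 0.01.

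The genes nearest to Mmp13 in their 4 values, by root mean square difference, were Matn3 (0.27), the scavenger receptor Scara3 (0.31), Fmod (0.47), Col9a1 (0.49) and Nrep (0.58). Nearest to Mmp9 were Glipr2 (0.05), the ganglioside enzyme St3gal5 (0.09), the T cell receptor component Cd3d (0.105), the cytokine Ltb (0.13) and Dhrs1 (0.15). Glipr2 stood at 0.74, 0.29, -0.29 and -1.50 on trabecular samples 1 and 2 and long bone samples 1 and 2. Both rankings passed over the other members and predicted genes (symbols that start with Gm and a digit or end in Rik). These likenesses are over 4 arrays and are descriptions only. Within the family the closest pairs were Mmp16 with Mmp19 (0.06) and Mmp14 with Mmp16 (0.09), which are flat genes, and the farthest was Mmp9 from Mmp13 (2.82).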

How the data were processed

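Affymetrix arrays were read for 4 samples, 2 per area. The deposited values are log2 expression made by the authors with RMA, per the submitters' processing notes (no version given), and the deposited values had also been centred, since the median over the 4 arrays is 0 for each of 45101 probe sets within 5e-07. The step of stored 32-bit numbers matches log2 levels. The design text names a human array, while the probe sets are those of a mouse array. Leaving out 64 control probe sets, 34945 of 45037 had 1 gene, 932 several and 9160 none. A gene's value is the mean of its probe sets, compared with lmFit and eBayes (no trend) of limma 3.58.1, under R 4.3.3 (Benjamini-Hochberg at 0.05, two-sided) and tested on simulated data. All 10 members are named, with up to 4 genes per list by size of difference, all TIMPs and Reck, and the 5 genes nearest to Mmp13 and Mmp9. Members, lists and motifs were chosen with earlier results of these data known. Granule genes and others named beyond these were picked after their values were seen. The number of arrays limits the precision.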

Additional observations from a re-analysis of the deposited data

How the results depend on the processing

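Alternatives were each array left out, quantile normalization, equal hybridisation controls, the replicate block, a trend on the level band, and other ways to combine or filter probe sets. The replicate block, its crossed form below and the trend cannot change a difference in this design, only its p. Combining probe sets in another way changes no difference of a gene with 1 probe set. The counts of values below include such settings. Of 112 values of single members, 99 kept direction and side of the threshold, 6 passed it and 7 reversed. The stromal minus myeloid difference of -3.09 stayed between -3.69 and -2.48 with 1 array left out, and could not be given over probe sets of 8 and above, where no stromal probe set was left. The sign reversed with equal hybridisation controls for Mmp14 (0.14), Mmp16 (0.30), Mmp19 (0.38) and Mmp23 (0.057), by the common shift of 0.40, after quantile normalization for Mmp19 (0.0052), and without long bone array 2 for Mmp19 (0.093, from -0.13 to 0.093 with 1 array left out) and Mmp23 (0.17, from -0.86 to 0.17). Genes called went from 0 to 2857 with equal hybridisation controls (probe sets from 0 to 2) and to 2 with the probe set of largest range; the cause was not tested. With 1 array left out 0 to 1603 genes and 0 probe sets were called, the 1603 without long bone array 1, whose fit takes its spread from the trabecular pair. At an unadjusted p under 0.05 there were 2811 genes and 7325 probe sets, 1015 to 5458 and 2673 to 12789 with 1 array left out, 9538 and 19308 with equal hybridisation controls, and 1462 of 8405 genes at 8 and above (1249 higher). With the replicate block 0 genes and 0 probe sets were called (2450 and 5707 at an unadjusted p under 0.05). The block cannot change the stromal minus myeloid difference of -3.09. Whether same-numbered arrays share a mouse or a day is not stated. Their deviations correlated at -0.11 over genes, which cannot settle it. A crossed replicate block, added after seeing the data, also called 0 (2709 genes and 7340 probe sets at an unadjusted p under 0.05).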
